A study of Homo sapiens with 4 samples.

Results

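The Eph receptor tyrosine kinases and their membrane-bound ligands, the ephrins, were examined in HT-29 cells in which APC had been silenced. HT-29 is an established human colorectal cancer line. The genes were chosen by name: 6 receptors (EPHB2, EPHB3, EPHB4, EPHA1, EPHA2 and EPHA4) and 4 ephrins (EFNA1, EFNA4, EFNB1 and EFNB2), which makes 10 of the 22 Eph and ephrin genes listed and 10 of 19729 genes in all. EFNA4 rose about 3-fold upon APC silencing and was the only member called by the test. Both APC shRNA values lay above both control values for 5 of the 8 members tested, EFNA1 and EFNB2 among them, and for 33.0% of all genes tested. EFNA1 and EFNB2 did not pass the test. Of 16 alternative settings that kept all 4 libraries, EFNB2 passed under 8 and EFNA1 under 0. EPHB2 was near 0 in the controls and remained low.

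All 4 libraries came from HT-29 cells labelled MSS, BRAF-V600E and APC-mutant, at passage 3 to 5 after lentiviral transduction, and all received doxycycline (DOX) at 500 ng/ml for 72 h. DOX induced a non-silencing shRNA (NonS, libraries I and II) in the controls and an APC-targeting shRNA (APC shRNA, libraries I and II) in the silenced cells. The controls thus carry truncated APC and DOX as well, and the silenced group rests on a single shRNA in 1 cell line, so that APC silencing cannot be told apart from any other effect of that shRNA or of that transduced population. The study describes the libraries as biological duplicates of poly(A)-selected RNA.

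Ephs and ephrins signal where cells touch. The receptor phosphorylates targets in its own cell (forward signalling), while the ephrin can signal back into the cell that carries it (reverse signalling). EphA receptors mainly bind the GPI-anchored ephrin-A ligands and EphB receptors the transmembrane ephrin-B ligands. In the intestinal crypt, EPHB2 and EPHB3 are known as targets of β-catenin and TCF, highest near the crypt base, and their repulsion from ephrin-B-bearing cells helps to keep proliferating and differentiated cells in place. APC is part of the complex that degrades β-catenin, and the comparison of APC shRNA with NonS asks which of these genes respond when it is silenced.

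The values are whole numbers that behave as length-scaled, depth-scaled levels rounded by the authors, not as read counts. Genes are set side by side on that basis, but the length used for each is unknown, so levels compare only roughly. The read depth behind the values is unknown, and the values sum to between 398338 and 413595 per library. APC itself had values of 3 and 0 in NonS, against 0 in each library upon silencing, too low to check the labels. The study reports that the shRNA silenced APC mRNA and protein in this line, the protein shown by immunoblot. The Wnt feedback gene AXIN2 was at 16 and 22 in NonS, against 124 and 178 upon silencing, and NKD1, another Wnt antagonist, went from 0 in both NonS libraries to 28 and 36. All 7 colonic epithelial markers were above 0 in at least 1 library, although CDX2 was at 0 in both NonS libraries, and all fibroblast, endothelial and leukocyte markers were at 0 in every library. In bulk RNA, fewer cells that express a gene and less RNA per cell cannot be told apart.

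Of the 10 members, 9 were above 0 in at least 1 library, and 8 had a mean of at least 10 and were tested with limma on log2(value + 1), with Benjamini-Hochberg adjustment over 5376 genes. A gene was called at an adjusted p under 0.05. One member, EFNA4, was called higher (1 of 8 tested), where 4.33% of all genes tested were called higher, and 0 members were called lower, where 3.7% were (8.04% in either direction). At an unadjusted p under 0.05, 3 members passed, all higher, beside 35.6% of all genes in either direction. For 5 of the 8, the lower APC shRNA value exceeded the higher NonS value, against 33.0% of all genes tested, and for 1 the reverse held, against 27.5%. The median difference was 0.32 on the log2 scale over the 8 members and 0.03 over all genes tested. Over 5364 genes the difference correlated with GC content at 0.24 (Spearman), and the part of GC content in the members' median was not tested. With so few members, these counts do not set the family apart from other genes.

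**Figure D1:**
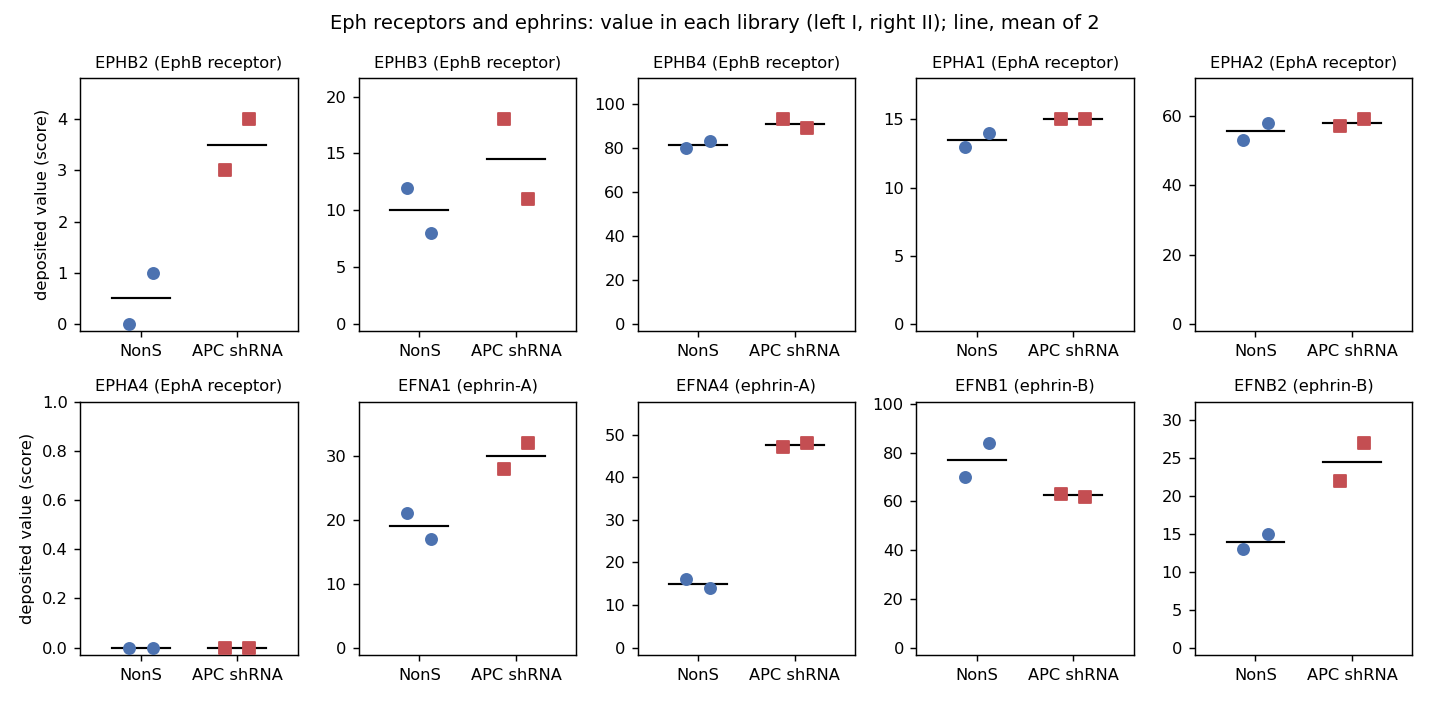
Deposited expression value of each of the 10 members in each library. Each point is 1 library, NonS or APC shRNA, and the vertical axis is the rounded length-scaled value. EFNA4 separates most clearly, with NonS at 14 and 16 and APC shRNA at 47 and 48, while EPHA4 lies at 0 throughout.

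Among the ephrin-A ligands, EFNA4 encodes ephrin-A4, a GPI-anchored ligand of EphA receptors. It was listed at 16 and 14 in NonS, against 47 and 48 upon silencing. Both silenced libraries lay far above both controls, and the duplicates of each group differed by at most 2. The mean rose from 15.0 ± 1.41 (SD, n = 2) to 47.5 ± 0.707 (SD, n = 2), a 3.17-fold ratio, which rounding of the values could place anywhere from 3.03 to 3.31. A ratio of at least 3 was reached by 1.28% of all genes tested. In limma, the difference was 1.60 on the log2(value + 1) scale (SE 0.09, 95% interval 1.33 to 1.87, adjusted p = 0.0423). The call was lost whenever any 1 of the 4 libraries was left out, with differences of 1.51 to 1.69 and limma adjusted p from 0.15 to 0.208. No gene at all was called with 3 libraries.

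EFNA1 encodes ephrin-A1, a main ligand of EPHA2. It was at 21 and 17 in NonS, against 28 and 32 upon silencing. Both silenced libraries lay above both controls. The means were 19.0 ± 2.83 and 30.0 ± 2.83 (SD, n = 2 each), a ratio of 1.58. The limma difference was 0.64 (SE 0.15, 95% interval 0.19 to 1.09) and was not called (adjusted p = 0.0905).

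EFNA4 and EFNA1 lie on the same strand of chromosome 1 with EFNA3, which encodes ephrin-A3, between them. In GENCODE v29 (GRCh38), EFNA4 (ENSG00000243364) spans chr1:155063731-155069553 and EFNA1 (ENSG00000169242) spans chr1:155127460-155134857. From the start of EFNA4 to the end of EFNA1 the cluster covers 71.1 kb. EFNA3 was low in every library, at 2 and 2 in NonS, against 4 and 4 upon silencing, and was not tested. A gene model that runs across EFNA4 and EFNA3, AL691442.1, shares 189 exonic bases with EFNA4 on the same strand, and was listed at 1 and 1 in NonS and 3 and 3 in APC shRNA. How the counting shared reads between these models is not given in the sources used here.

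Within 100 kb of the cluster, a window chosen after the values were seen, 19 genes are listed, of which 11 were tested. EFNA4 was the only one called. Among the tested neighbours ADAM15, which encodes a membrane metalloprotease, was at 67 and 61 in NonS, against 45 and 39 upon silencing, a limma difference of -0.60 (adjusted p = 0.0689). SLC50A1, a sugar transporter gene, was at 37 and 41 against 25 and 27 (limma difference -0.57, adjusted p = 0.0582). Both were picked with their values in view, and both stood lower where the ephrin-A genes stood higher.

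**Figure D2:**
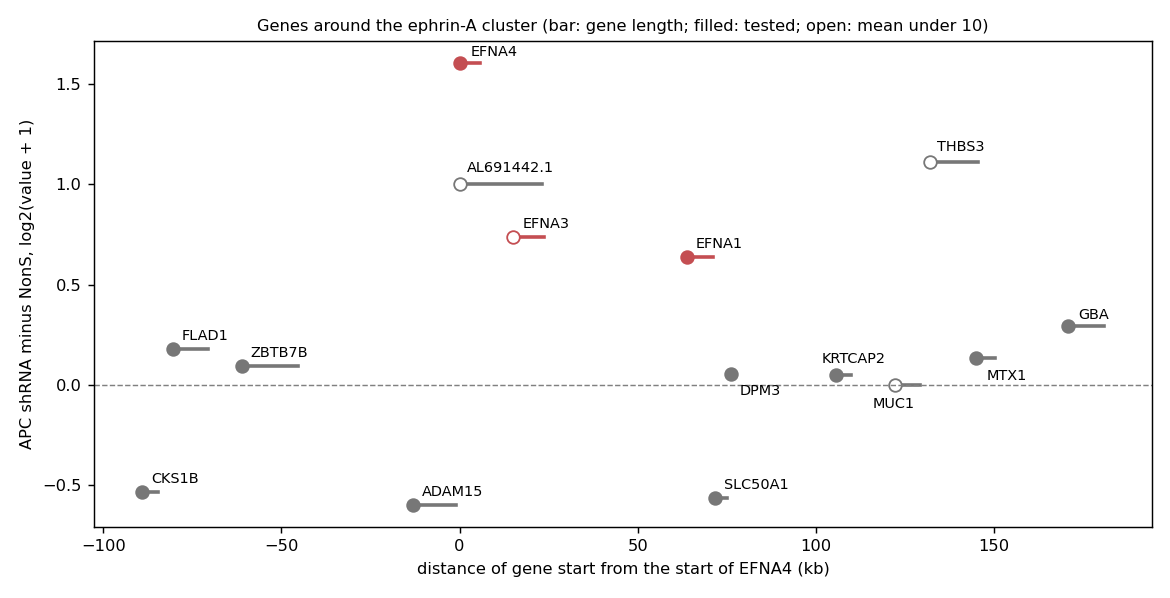
Difference of APC shRNA from NonS in log2(value + 1) for the listed genes around the ephrin-A cluster, against the distance from the start of EFNA4 in kb. Bars span each gene, and the point at the left end of each bar is filled where the gene was tested and open where its mean was under 10. EFNA4 (1.60) and EFNA1 (0.64) lie above 0, while ADAM15 (-0.60) and SLC50A1 (-0.57) lie below it.

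The start regions of the 3 clustered ephrin-A genes and of EPHB2, the classical β-catenin and TCF target among the receptors, are shown because they belong to the genes with the largest ratios and their neighbours. Each runs 5′ to 3′ on the plus strand from 250 bases before to 50 bases after a RefSeq start (GRCh38.p14): chr1:155063490-155063789 for EFNA4, chr1:155078587-155078886 for EFNA3, chr1:155127626-155127925 for EFNA1 and chr1:22710588-22710887 for EPHB2. Capitals mark CTTTG or its reverse complement CAAAG, the core of the motif that TCF and LEF factors bind.
EFNA4: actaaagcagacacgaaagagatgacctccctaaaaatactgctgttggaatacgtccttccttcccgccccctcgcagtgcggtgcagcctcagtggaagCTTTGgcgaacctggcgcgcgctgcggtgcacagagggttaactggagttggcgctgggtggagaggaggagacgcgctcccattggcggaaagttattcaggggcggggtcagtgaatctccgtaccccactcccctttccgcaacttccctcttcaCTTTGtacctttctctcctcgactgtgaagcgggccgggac
EFNA3: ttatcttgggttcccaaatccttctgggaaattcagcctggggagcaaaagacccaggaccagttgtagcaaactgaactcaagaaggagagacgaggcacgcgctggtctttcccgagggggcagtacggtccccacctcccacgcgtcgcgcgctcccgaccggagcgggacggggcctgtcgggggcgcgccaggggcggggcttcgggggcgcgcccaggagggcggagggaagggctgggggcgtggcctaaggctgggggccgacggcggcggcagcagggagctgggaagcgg
EFNA1: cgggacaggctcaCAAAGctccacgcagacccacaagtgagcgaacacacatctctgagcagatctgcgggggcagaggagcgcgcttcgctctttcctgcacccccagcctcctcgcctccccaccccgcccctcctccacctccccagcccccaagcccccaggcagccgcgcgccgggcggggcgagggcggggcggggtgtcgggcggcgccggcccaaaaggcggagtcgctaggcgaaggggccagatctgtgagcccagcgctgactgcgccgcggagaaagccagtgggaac
EPHB2: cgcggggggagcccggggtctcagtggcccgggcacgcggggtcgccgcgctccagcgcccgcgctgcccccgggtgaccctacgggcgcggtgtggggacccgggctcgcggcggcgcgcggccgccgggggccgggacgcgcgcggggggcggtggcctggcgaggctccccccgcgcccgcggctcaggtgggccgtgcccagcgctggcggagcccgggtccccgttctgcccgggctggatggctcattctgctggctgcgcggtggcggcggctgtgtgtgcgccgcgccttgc

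The core was found 2 times in the EFNA4 window and 1 time in that of EFNA1, and not in those of EFNA3 and EPHB2. Over all members, 4 of 10 had it in at least 1 of their windows, and 47.5% of all 35116 RefSeq windows did. The longer form CTTTGAT, which contains the core, was in none of the members' windows and in 2.62% of all windows. The EPHB2 window was made up of G and C to 83.0%, that of EFNA4 to 58.3%. A match of letters describes these 300 bases only, and says nothing of enhancers outside them or of factor binding.

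Among the ephrin-B ligands, EFNB2 (ENSG00000125266, minus strand, chr13:106489731-106535662) encodes ephrin-B2, the preferred ligand of EPHB4. It was at 13 and 15 in NonS, against 22 and 27 upon silencing. Both silenced libraries lay above both controls. The means were 14.0 ± 1.41 and 24.5 ± 3.54 (SD, n = 2 each), a ratio of 1.75, and the limma difference was 0.76 (SE 0.14, 95% interval 0.31 to 1.21, adjusted p = 0.0717), short of the call. EFNB2 passed under 8 of 16 alternative settings that kept all 4 libraries, for example with limma adjusted p = 0.038 after median-of-ratios scaling, under which 6.94% of all genes were called higher, and the adjusted p over all its alternatives ran from 0.00539 to 0.289. An antisense gene, AL138689.2, shares 1313 exonic bases with it, and since the strand setting of the counting was not given, reads from both cannot be told apart.

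EFNB1 (ENSG00000090776, chrX:68828997-68842147), the gene of ephrin-B1, a ligand of EPHB2 and EPHB3, was the one member that lay lower. It was at 70 and 84 in NonS, against 63 and 62 upon silencing. The groups did not overlap, but the controls differed from each other by more than the nearest control differed from the silenced libraries. The means were 77.0 ± 9.9 and 62.5 ± 0.707 (SD, n = 2 each), a ratio of 0.812, with a limma difference of -0.29 (SE 0.12, 95% interval -0.65 to 0.07, adjusted p = 0.192).

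Of the EphB receptors, EPHB2 (ENSG00000133216, chr1:22710839-22921500) was listed at 0 and 1 in NonS, against 3 and 4 upon silencing. Both silenced libraries were higher, as in 20.8% of genes that were above 0 but too low to test. The means were 0.5 ± 0.707 and 3.5 ± 0.707 (SD, n = 2 each), a ratio of 7.0 that rounding could place anywhere from 3.0 to 16.0. With a mean of 2.0, EPHB2 was not tested. In the 2 fits with lower minimums that included it, the limma adjusted p was 0.179 and 0.187, and the log2 difference of 1.66 became 3.43 with a pseudocount of 0.1 and 0.63 with 5.

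EPHB3 (ENSG00000182580, chr3:184561784-184582409), which acts alongside EPHB2 in the crypt, was at 12 and 8 in NonS, against 18 and 11 upon silencing. The groups overlapped, since APC shRNA II lay below NonS I, and library I was the higher of the duplicates in both groups. Between libraries of the same number the log2 difference was 0.55 for I and 0.415 for II. The means were 10.0 ± 2.83 and 14.5 ± 4.95 (SD, n = 2 each), and the limma difference of 0.48 (SE 0.34) had a 95% interval of -0.58 to 1.54 (adjusted p = 0.38). This interval, from a fit that does not use the library number, leaves room for more than a doubling and for a fall. With that number as a block, the limma adjusted p was 0.0528, also short of the call.

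EPHB4 (ENSG00000196411, minus strand, chr7:100802565-100827521), the receptor of ephrin-B2, had the highest mean of the 10 members in both groups, although its NonS values overlapped those of EFNB1. It was at 80 and 83 in NonS, against 93 and 89 upon silencing. The groups did not overlap and the shift was small. The means were 81.5 ± 2.12 and 91.0 ± 2.83 (SD, n = 2 each), a ratio of 1.12, with a limma difference of 0.16 (SE 0.06, 95% interval -0.03 to 0.34, adjusted p = 0.183). It shares 69 exonic bases with SLC12A9 on the opposite strand, which was at 21 in every library.

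Of the EphA receptors, EPHA2 (ENSG00000142627, minus strand, chr1:16124337-16156087), a receptor of ephrin-A1 that is common in epithelial cancers, was at 53 and 58 in NonS, against 57 and 59 upon silencing. The groups overlapped. The means were 55.5 ± 3.54 and 58.0 ± 1.41 (SD, n = 2 each), and the limma difference was 0.06 (SE 0.07, 95% interval -0.16 to 0.29, adjusted p = 0.571). Its sign turned when GC content was corrected for (-0.04) and when NonS I was left out (-0.00021). EPHA1 (ENSG00000146904, minus strand, chr7:143390289-143408892), the founding member of the family, was at 13 and 14 in NonS, against 15 and 15 upon silencing, a limma difference of 0.14 (SE 0.06, 95% interval -0.05 to 0.34, adjusted p = 0.218). EPHA1 shares 82 exonic bases with ZYX on the opposite strand, and ZYX was at 37 and 37 in NonS, against 67 and 58 upon silencing. The part of that overlap in the EPHA1 values was not tested. EPHA4 (ENSG00000116106, minus strand, chr2:221418027-221574202), a receptor that binds ligands of both classes, was listed at 0 in all 4 libraries.

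Within NonS, EPHB4 (mean 81.5) and EFNB1 (77.0) headed the order and overlapped, followed by EPHA2 (55.5) and EFNA1 (19.0). EFNA4 (15.0), EFNB2 (14.0) and EPHA1 (13.5) could not be ordered beyond their spread. EPHB3 (10.0) lay below them, and EPHB2 and EPHA4 at or near 0. In APC shRNA the order was EPHB4 (91.0), EFNB1 (62.5), EPHA2 (58.0), EFNA4 (47.5), EFNA1 (30.0) and EFNB2 (24.5), in which no neighbours overlapped. EPHA1 (15.0) and EPHB3 (14.5) overlapped, and EPHB2 (3.5) stayed next to last. EFNA4 thus moved from the group of low members to a place above EFNA1.

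Summed over all family genes of a class, the ephrin-A values were 48 and 46 in NonS and 88 and 92 in APC shRNA, a ratio of 1.91. EFNA4 made up 33.3% and 30.4% of the ephrin-A sum in NonS and 53.4% and 52.2% in APC shRNA. The ephrin-B sum was 83 and 99 in NonS and 85 and 89 in APC shRNA, a ratio of 0.956. Within that sum, EFNB2 went from 15.7% and 15.2% to 25.9% and 30.3%, beside the lower EFNB1. The EphB sum was 98 and 104 against 128 and 125, and the EphA sum 67 and 73 against 73 and 75. Among all ephrins, EFNB1 took 53.4% and 57.9% in NonS and 36.4% and 34.3% in APC shRNA. These sums and shares are descriptions with no test.

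Of the 12 other family genes, 11 had a mean under 10. EPHB6, which encodes a receptor without kinase activity, was the only one tested, with values of 6 and 12 in NonS, against 14 and 21 upon silencing. The groups did not overlap, but the spread within each was wide, and the limma difference of 0.93 (SE 0.42, 95% interval -0.38 to 2.24) was not called (adjusted p = 0.224). Its mean upon silencing, 17.5, lay above those of EPHA1 and EPHB3. EFNA2 was at 6 and 10 in NonS, against 7 and 5 upon silencing, EFNA5 at 3 and 3 against 2 and 3, and EPHA10 at 1 in every library. The other 7 (EPHA3, EPHA5, EPHA6, EPHA7, EPHA8, EPHB1 and EFNB3) were listed at 0 in every library.

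A list of 43 genes that act with Ephs and ephrins was examined, of which 39 were above 0 in at least 1 library and 23 were tested. One was called higher and 1 lower, where 4.33% and 3.7% of all genes tested were, so the share is near the background, and the median difference was 0.05. ABL1, a tyrosine kinase that interacts with Eph receptors, rose from 12 in both NonS libraries to 22 in both APC shRNA libraries, a limma difference of 0.82 (SE 0.05, 95% interval 0.67 to 0.97, adjusted p = 0.0423). Its duplicates were identical, so its error came from the variance limma borrows from other genes. PAK1, a kinase downstream of RAC1 and CDC42, fell from 35 and 37 to 25 and 26, a limma difference of -0.48 (SE 0.06, 95% interval -0.67 to -0.29, adjusted p = 0.0487). The PAK1 call was lost with a minimum mean of 8 (limma adjusted p = 0.0513) and with at least 10 in every library (0.0527), and its adjusted p over all alternatives ran from 0.00925 to 0.208. Both calls were lost whenever any 1 of the 4 libraries was left out, with differences of 0.82 for ABL1 and of -0.52 to -0.44 for PAK1.

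By role, 12 of 19 receptor-proximal kinases and adaptors were tested, with a median of 0.14 and ABL1 as the one call. Of the 4 reverse-signalling genes 2 were tested and 0 called, and of the 4 genes of ephrin cleavage and adhesion 2 were tested and 0 called by limma, beside 7 of all 23 at an unadjusted p under 0.05, a threshold that 35.6% of all genes tested passed. Among genes picked with their values in view, the adaptor GRB7 was at 21 and 26 in NonS, against 43 and 48 upon silencing (limma difference 0.93, adjusted p = 0.0582). NCK2, an adaptor that links Ephs to the cytoskeleton, was at 12 and 14 against 20 and 22 (limma difference 0.65, adjusted p = 0.0629). E-cadherin (CDH1) was at 98 and 119 against 74 and 85 (limma difference -0.44, adjusted p = 0.145). AFDN, the other tested gene of cleavage and adhesion, was at 20 and 21 against 16 and 14 (limma difference -0.43, adjusted p = 0.0818). None of these genes was called.

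The genes most like the members with the largest tested differences were sought by the root mean square distance between log2 profiles, each centred on its mean, over the 4 libraries. Nearest to EFNA4 were TMEM132A (distance 0.0494), VWA2 (0.0733) and PAPSS1 (0.0828). TMEM132A was at 11 and 10 in NonS, against 35 and 37 upon silencing. Nearest to EFNB2 were NINJ1 (0.0269), WFS1 (0.028) and MRPS6 (0.0284), of which NINJ1 was at 15 and 17 against 24 and 30. Over 4 libraries, such likeness is a description only.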

How the data were processed

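RNA-seq values of 4 HT-29 libraries (2 NonS, 2 APC shRNA) were analysed. Per the study's methods, stranded poly(A) libraries were sequenced as single reads, aligned with TopHat2 and counted with htseq-count, and compared with DESeq2 1.4.1. The strand setting was not given. The methods name human assembly 38 with GENCODE v29, the labels hg19. For each library, the authors deposited whole numbers over 19729 genes, taken here as a score. Duplicates varied less than read counts would, as checked in genes of low value. Their variance over that expected of Poisson counts was 0.496 in NonS (4632 genes) and 0.345 in APC shRNA (4531 genes). Values times gene length gave nearly equal sums in all libraries. No count model was therefore used, contrary to the study, and read depth and its precision are unknown. A deposited table of the authors' own comparison (fold changes and p-values) was not used.

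Values were tested as log2(value + 1) in limma 3.58.1 (R 4.3.3, mean-variance trend) over genes with a mean of at least 10, called at an adjusted p under 0.05. With 2 libraries against 2, an exact permutation test of a single gene cannot go below 0.333. Scaling, filter, pseudocount, moderation, GC content, gene length, block and left-out libraries were varied. Tables were built in Python 3.11.15 with pandas 2.3.3, and the fit was tested on simulated data. There, limma called 22.0% of 200 genes changed 2-fold and 67.0% of 200 genes changed 4-fold. In each case 6 unchanged genes were called as well. The simulated libraries were independent, with variances drawn from the fit's own prior, so these shares need not hold for the real data. A gene that was not called may thus still have changed. Positions are from GENCODE v29 and start regions from RefSeq (GRCh38.p14). One role group of the signalling list is not reported here.

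Members and gene lists were chosen with earlier results of these data known. Named were all members, family genes above 0, called genes of the signalling list, a few Wnt targets, and for the 2 members with the largest tested differences the 3 nearest genes; others are said to be chosen after their values were seen.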

Additional observations from a re-analysis of the deposited data

How the results depend on the processing

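With 2 libraries a group, unknown depth and rounded values, small shifts and low genes such as EPHB2 could not be resolved. For the members tested, 127 comparisons with an alternative that kept all 4 libraries gave a test. Of these, 115 kept direction and side of the threshold, 10 gained a call and 2 turned sign. EFNA4 kept its call in all 16 settings with 4 libraries at an adjusted p under 0.05 and lost it in the 4 that left out a library, where limma called 0 of all 5376 genes in either direction; fewer libraries leave less to estimate the spread from. Members called higher numbered 1, and 2 with median-of-ratios, upper-quartile or equal-total scaling, robust moderation, GC or gene length correction, the second being EFNB2. At the study's thresholds (fold over 4, adjusted p under 0.01) 0 members and 0 signalling genes were called, as were 0 of all genes. The smallest limma adjusted p of any gene was 0.0423, so these thresholds could call none here. The study set them on its own DESeq2 comparison, so the 0 does not bear on its result. Leaving out a library gave 0 to 0 calls for members and for signalling genes in both directions. EPHA2 turned to -0.04 with GC correction, with and without the block (-0.039 in both), and to -0.00021 without NonS I; leaving out a library placed it between -0.00021 and 0.1275.

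Signalling genes called higher numbered 1, 2 with a minimum mean of 1 or no minimum (ABL1 and ABL2), and 3 with the 3 scalings, robust moderation, GC or length correction (ABL1, GRB7 and NCK2). Those called lower numbered 1, 2 with a minimum mean of 1 or no minimum (KALRN and PAK1), and 0, without PAK1, with a minimum mean of 8 or with at least 10 in every library. Over all genes, 233 were called higher and 199 lower. These became 952 and 515 without a minimum, 723 and 430 with a minimum mean of 1, 373 and 405 (median of ratios), 336 and 349 (upper quartile) and 343 and 369 (equal totals) after scaling, 368 and 352 with robust moderation, 445 and 449 with GC and 357 and 331 with length correction. They became 159 and 140 with a minimum mean of 8, and 139 and 134 with at least 10 in every library.

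Replicate numbers I and II are not said to mark a shared day or batch. The differences of II from I in both groups correlated at 0.724 over 5376 genes. With the replicate number as a block, 2 members were called higher (EFNA4 and EFNB2), 3 signalling genes higher and 2 lower (PAK1 and YES1), with 523 genes higher and 500 lower in all. With the block and a GC correction, 3 members were called higher (EFNA4, EFNB2 and EPHB3) and 1 lower (EFNB1, difference -0.39, limma adjusted p = 0.018), 5 signalling genes higher and 5 lower, with 1225 and 1235 in all. For EPHB3 the limma adjusted p was 0.0528 with the block and 0.0215 with block and GC correction, and its adjusted p over all alternatives ran from 0.0215 to 0.792. The cause of these shifts was not tested.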

Other observations

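Some genes of the signalling list differed more between duplicates than between groups on the log2 scale, and were singled out for it after their values were seen. ROCK2, a kinase that acts on the cytoskeleton, was at 16 and 2 in NonS, against 5 and 2 upon silencing. YES1, a SRC family kinase, was at 27 and 11 in NonS, against 13 and 6 upon silencing, and ADAM10, the protease that cleaves ephrins, at 11 and 5 against 6 and 3. In each, library I was above library II in both groups. Across all genes tested, 102 differed by more than 2-fold in value + 1 between the NonS duplicates and 114 between the APC shRNA duplicates. ROCK2 and ADAM10, with a mean of 6.25 each, were too low to be tested and are not among those genes.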
